A study of Arabidopsis thaliana with 6 samples.

Results

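The genes described here encode proteins of the cytosolic ribosome of Arabidopsis thaliana. They are 49 genes taken by gene identifier from a given list, out of 31276 genes in the deposited table. They cover 32 ribosomal protein families, of which 14 are present with 2 or 3 paralogous copies (31 genes) and 18 with a single gene. The large subunit has 28 of the genes, 3 of them in its stalk, and the small subunit has 21. RNA was profiled in hypocotyls, the embryonic stems, cut from 1-week-old seedlings of the Col-0 accession. One group of 3 biological replicates was collected at excision (day 0) and the other group of 3 after 7 days on callus-inducing medium (day 7), on which explants form callus, a growing mass of dividing cells. Both groups have the genotype Col-0 and the labels give no other allele or agent. They call the tissue of all 6 libraries callus although the day 0 tissue was freshly cut. The comparison asks how ribosomal protein transcripts differ between the explant and the callus that grows from it, and whether paralogs of a protein shift together.

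The cytosolic ribosome is made of ribosomal RNA and a large set of proteins, most of them present in a single copy per particle. In Arabidopsis a ribosomal protein is typically encoded by a small family of nuclear genes with closely similar products, and loss of a copy is known, for several families, to give pointed leaves or altered leaf polarity. Growing and dividing tissues are known for high levels of these transcripts, and the kinase TOR, acting in part through the S6 kinases, is known to promote ribosomal protein synthesis. Short promoter elements named the telo box and the site II motif are known to recur upstream of ribosomal protein genes in Arabidopsis.

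The values are TPM, a transcript abundance corrected for length and for the library's total, which keeps no sequencing depth, so the depth is unknown and no counting interval is given. The deposited values of a library summed to 81.2% to 92.2% of 1000000 TPM at day 0 and 79.4% to 90.8% at day 7. The rest is absent from the deposited table. The libraries differed in composition: nuclear ribosomal RNA genes held 4.19% to 18.0% of the 1000000 TPM at day 0 and 8.44% to 38.9% at day 7. TPM were therefore divided by a median-of-ratios factor per library (0.717 to 1.57), and the result is called scaled TPM. Markers of other cell types also moved between the groups. All 3 epidermis markers fell and their summed scaled TPM went from 261 to 343 at day 0 to 15.4 to 33.1 at day 7. All 4 green tissue markers fell, from sums of 75.2 to 522 to sums of 6.60 to 8.55, the highest being day 0 replicate 3, with LHCB2.1 at 0 in day 7 replicate 1. Of 4 root meristem markers 3 rose (sums of 18.1 to 29.7 and 233 to 257). Of 4 markers of dividing cells 2 rose and 0 fell (sums of 100.1 to 119 and 128 to 147). The xylem list had 1 rise and 1 fall among 3 markers, the fall (XCP1) changing sign on the protein-coding scale described below, with sums of 45.5 to 63.7 and 38.9 to 48.4. Both phloem markers fell, with sums of 12.6 to 18.0 and 3.38 to 5.83. The part of this change of cell types in the results below was not tested, and in whole-tissue RNA fewer cells of a type and less RNA per cell cannot be told apart.

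Ribosomal protein transcripts were less abundant in 7-day callus than in the fresh explant. On the scaled values all 49 genes fell and 0 rose (limma on log2(scaled TPM + 1), Benjamini-Hochberg adjusted p below 0.05 over 18608 tested genes), although RPL16A and RPS15A turned to small positive, non-significant differences of 0.06 and 0.04 when TPM were rescaled over nuclear protein-coding genes. Over all tested genes 34.5% fell and 30.1% rose. The median log2 difference of the 49 genes was -1.04, with quartiles of -1.22 and -0.86, against a median of -0.03 over all tested genes. The median ratio of the day 0 mean to the day 7 mean was 2.06, and it was at least 2-fold for 28 genes and at least 1.5-fold for 45. All 3 day 0 libraries lay above all 3 day 7 libraries for each of the 49 genes, a separation seen in this direction for 37.1% of all tested genes.

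The number of calls depended on how libraries were put on one scale. On TPM as deposited the mean of every one of the 49 genes was lower at day 7 and the libraries of the groups did not overlap for 39 of them (19.5% of all tested genes), but only 18 passed the test (16.2% of all tested genes fell and 13.4% rose), with a median log2 difference of -0.95. With TPM rescaled to a fixed sum over nuclear protein-coding genes 40 fell and 9 did not pass, whereas 21.0% of all tested genes fell and 49.6% rose. The median of the 49 genes was then -0.54. That scale placed the median of all tested genes at 0.41, so the 49 genes lay 0.95 below the median gene there, compared with 1.00 below it on both other scales. Among the 9 that did not pass were RPL3A, RPL10C, RPL16A, RPS15A, RPS18C, the RPP1 copy AT1G01100 and the RPS24 copy AT5G28060.

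As a share of nuclear protein-coding TPM, the same sum that the protein-coding scale divides by, the 49 genes held 6.17%, 5.09% and 6.03% in day 0 replicates 1, 2 and 3. They held 4.02%, 4.11% and 4.04% in day 7 replicates 1, 2 and 3. Day 0 replicate 2 was the lowest of its group and still lay above all day 7 libraries. The day 0 libraries also differed more among themselves than the day 7 libraries did: the summed scaled TPM of the 49 genes was 47404, 36076 and 44018 at day 0 and 21090, 21172 and 21354 at day 7. These are sums over chosen genes and were not tested.

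**Figure D1:**
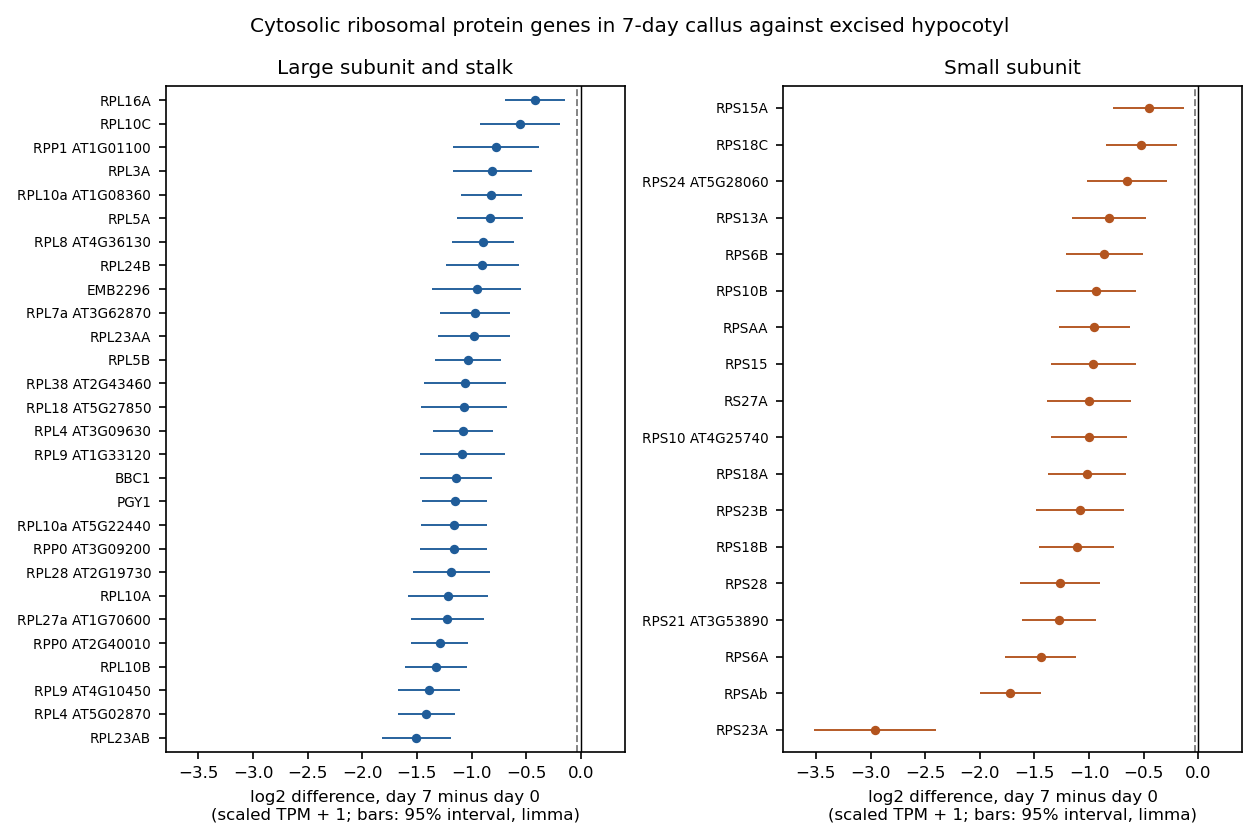
Log2 difference between day 7 and day 0 for 46 of the 49 genes (x axis, log2(scaled TPM + 1), 3 libraries per group), ordered within the large subunit with its stalk (left) and the small subunit (right). Points are limma estimates, bars their 95% intervals, the solid line is 0 and the dashed line the median of all tested genes at -0.03. All intervals lie below 0, from RPL16A at -0.42 to RPS23A at -2.96, whereas RPL16A and RPS15A turn to 0.06 and 0.04 on the protein-coding scale.

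Abundance spanned a wide range even though most copies were near the top of the transcriptome. At day 0 the means ran from 35.5 to 2036 scaled TPM with a median of 819.7, and 19 genes exceeded 1000. At day 7 the lowest mean was 3.84 and the median 412, and 2 genes exceeded 1000. The least abundant over all libraries was RPS23A, described with its paralog below. Only 5 of the 49 genes had a day 0 mean under 100 scaled TPM: RPL10B, RPL16A, RPSAb, RPS23A and the RPP0 copy AT2G40010, a set named after its values were seen.

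Because the copies of a family sit in the same library, the share of each copy in the summed TPM of the copies among the 49 genes does not depend on the scale between libraries. In 10 of the 14 families with 2 or 3 copies at least 1 copy had a share whose day 0 and day 7 libraries did not overlap, and this held for 22 of 31 copies. Among tested copies of the cytosolic families outside the 49 genes the same was seen for 75.4% (98 of 130 copies). At least 1 such copy was found in 41 of the 46 of those families with 2 or more tested copies. Neither count for the 49 genes is thus above that in the rest of the cytosolic ribosome. For pairs and for the size of shifts no count outside the 49 genes is given here. Of 20 pairs of copies, 14 had a ratio without overlap. With 3 libraries against 3 the exact two-sided permutation test cannot go below p = 0.1, and each share without overlap below has that p. None of the shares could therefore pass 0.05. The mean share moved by at least 5 points in 7 families, among them RPL10, RPS6, RPS18, RPL23a, RPL4 and RPL10a. Coding sequences of paralogs were 76.2% to 92.7% identical in the TAIR10.1 annotation, with identical runs of up to 98 bases (RPL10A and RPL10C), and how reads shared by copies were counted is not stated.

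**Figure D2:**
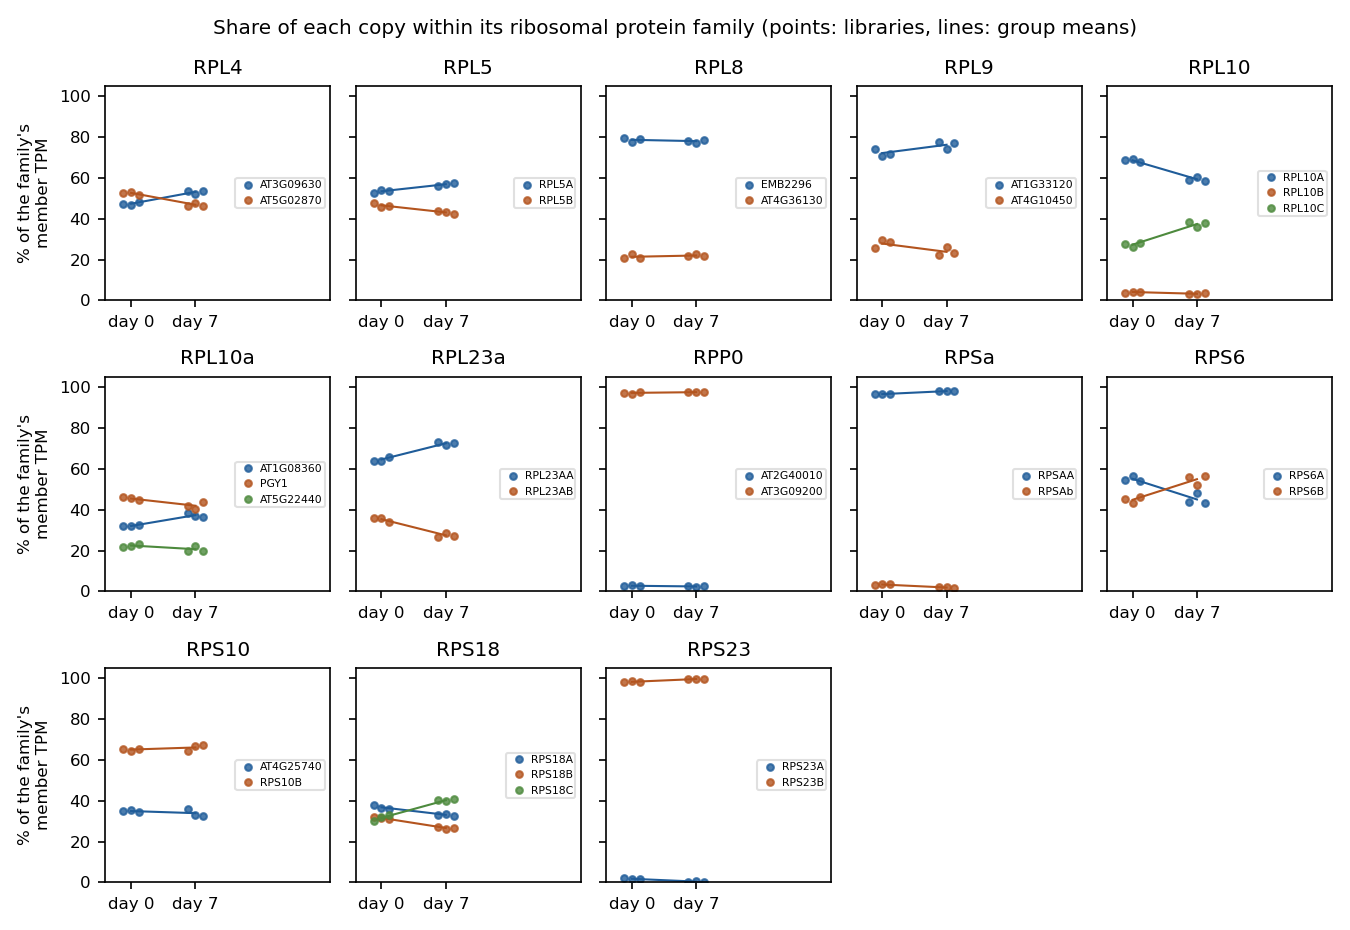
Share of each copy in the summed TPM of its family's copies among the 49 genes (y axis, percent) at day 0 and day 7 in 13 of the 14 families with 2 or 3 such copies. Points are libraries and lines join group means. In RPL4 and RPS6 the copies change order in every library, in RPS18 the C copy becomes the highest, and in RPL8, RPL9, RPP0 and RPS10 the day 0 and day 7 points of each copy overlap, which in RPL9, RPP0 and RPS10 no longer holds for 1 copy when further copies outside the 49 genes are summed too.

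Among large subunit families, RPL10 had the largest difference in share. RPL10 joins the large subunit late, near the site where peptide bonds form, and RPL10A is known as a target of the receptor kinase NIK1 in plant antiviral signalling. RPL10A read 1663, 1199 and 1453 at day 0 and 616, 626 and 597 at day 7 in scaled TPM. RPL10C read 671, 455 and 598 at day 0 and 400.2, 373 and 385 at day 7, and RPL10B read 91.8, 73.1 and 92.8 at day 0 and 31.5, 33.2 and 36.0 at day 7. All 3 copies were lower in every day 7 library than in any day 0 library. RPL10A fell by 2.35-fold, a change of -1.22 on the log2 scale (SE 0.16, limma adjusted p = 0.000282). RPL10B fell most, by 2.56-fold (log2 difference -1.32, SE 0.12, limma adjusted p = 4.46e-05). RPL10C fell least, by 1.49-fold (log2 difference -0.55, SE 0.16, limma adjusted p = 0.0151). That call was lost without day 0 replicate 3 (-0.52, limma adjusted p = 0.0558) and without day 7 replicate 3 (-0.55, limma adjusted p = 0.0524). RPL10C thus held 27.7%, 26.4% and 27.9% at day 0 and 38.2%, 36.2% and 37.8% at day 7 of the family, more in every day 7 library than in any day 0 library. The share of RPL10A went from 68.6% ± 0.826 to 59.3% ± 1.12 (SD, n = 3 each) and that of RPL10B from 4.11% ± 0.290 to 3.25% ± 0.269 (SD, n = 3 each). RPL10A stayed the most abundant copy in all 6 libraries, at 2.51 times the level of RPL10C at day 0 and 1.59 times at day 7.

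RPL23a, which sits at the exit of the peptide tunnel, held more of its more abundant copy at day 7. RPL23AA read 1386, 1118 and 1271 at day 0 and 598, 683 and 629.9 at day 7 in scaled TPM, and RPL23AB read 777, 630.5 and 659 at day 0 and 217, 271 and 237 at day 7. The AB copy fell by 2.85-fold, the steepest fall among the 28 large subunit genes (log2 difference -1.51, SE 0.14, limma adjusted p = 4.22e-05), and the AA copy by 1.98-fold (log2 difference -0.98, SE 0.14, limma adjusted p = 0.000539). The share of RPL23AA was 64.1%, 63.9% and 65.9% at day 0 and 73.3%, 71.6% and 72.7% at day 7. The AA copy was thus the higher one throughout, by 1.83 times at day 0 and 2.64 times at day 7.

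In the RPL4 family, whose protein reaches into the wall of the peptide tunnel, the order of the copies switched. The copy AT5G02870 read 907, 819 and 893 at day 0 and 316, 339.5 and 325 at day 7 in scaled TPM, and the copy AT3G09630 read 810.5, 717 and 829 at day 0 and 366, 369 and 378 at day 7. AT5G02870 was the higher copy in all day 0 libraries and AT3G09630 in all day 7 libraries. The falls were 2.67-fold (log2 difference -1.41, SE 0.11, limma adjusted p = 2.34e-05) and 2.12-fold (log2 difference -1.08, SE 0.12, limma adjusted p = 0.000111). AT3G09630 held 47.2%, 46.7% and 48.1% at day 0 and 53.7%, 52.1% and 53.7% at day 7 of the family.

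RPL10a forms the mobile side stalk of the large subunit through which spent transfer RNA leaves, and its copy PGY1 (AT2G27530) is known from mutants with altered leaf polarity. PGY1 read 960.1, 805 and 922 at day 0 and 376, 408 and 418 at day 7 in scaled TPM, against 665, 562 and 668 at day 0 and 346, 374 and 351 at day 7 for the copy AT1G08360. The copy AT5G22440 read 457, 396 and 476 at day 0 and 180.4, 225 and 188 at day 7. The order PGY1, AT1G08360, AT5G22440 was kept in all 6 libraries. AT1G08360 fell least, by 1.77-fold (log2 difference -0.82, SE 0.12, limma adjusted p = 0.000578), compared with 2.24-fold for PGY1 (log2 difference -1.16, SE 0.13, limma adjusted p = 0.000117) and 2.24-fold for AT5G22440 (log2 difference -1.16, SE 0.13, limma adjusted p = 0.000129). The share of AT1G08360 went from 32.0% ± 0.245 to 37.4% ± 0.850 (SD, n = 3 each) and that of PGY1 from 45.5% ± 0.758 to 42.0% ± 1.57 (SD, n = 3 each), both without overlap. The share of AT5G22440 overlapped between the days (22.5% ± 0.547 to 20.7% ± 1.45, SD, n = 3 each, exact permutation p = 0.2).

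The remaining large subunit families with 2 copies kept their order in every library. RPL5, which binds the smallest ribosomal RNA of the large subunit, had a share of RPL5A that went from 53.4% ± 0.891 to 56.9% ± 0.724 (SD, n = 3 each) without overlap. RPL5A, known also as PGY3, fell by 1.79-fold and RPL5B by 2.06-fold. The RPL8 copies EMB2296 (AT2G18020), named for an embryo-lethal mutant, and AT4G36130 fell by 1.96-fold and 1.87-fold. Their shares overlapped, with EMB2296 at 78.6% ± 1.06 to 78.0% ± 0.603, SD, n = 3 each (exact permutation p = 0.4). The RPL9 copies AT1G33120 and AT4G10450 fell by 2.16-fold and 2.65-fold. The share of AT1G33120 went from 72.2% ± 1.93 to 76.2% ± 1.93 (SD, n = 3 each), a mean shift of 4.07 points, but the libraries overlapped (exact permutation p = 0.2). That share leaves out a further RPL9 copy outside the 49 genes. With it in the sum AT1G33120 went from 35.4% ± 1.84 to 35.0% ± 1.88 (SD, n = 3 each), the other direction and still overlapping (exact permutation p = 0.8), and AT4G10450 went from 13.6% ± 0.930 to 10.9% ± 0.603 (SD, n = 3 each) without overlap.

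Of the large subunit genes without a paralog among the 49, the RPL27a copy AT1G70600 had the steepest fall. It read 1305, 998 and 1069.6 at day 0 and 459, 481 and 495 at day 7 in scaled TPM, and the groups did not overlap. Its change was -1.22 on the log2 scale (SE 0.14, limma adjusted p = 0.000167), a 2.35-fold fall. The RPL28 copy AT2G19730, BBC1 (an RPL13 gene, AT3G49010), the RPL18 copy AT5G27850 and the RPL38 copy AT2G43460 followed with log2 differences of -1.18, -1.14, -1.07 and -1.06. The RPL7a copy AT3G62870 differed by -0.97. RPL24B, known as STV1 and needed in Arabidopsis for reinitiation of translation after upstream open reading frames, fell by 1.88-fold (log2 difference -0.90, SE 0.15, limma adjusted p = 0.000877). RPL3A, whose yeast counterpart lies close to the peptidyl transferase centre, was the most abundant large subunit gene and fell from 1794 ± 187 to 1022 ± 72.2 scaled TPM (SD, n = 3 each). RPL16A (AT2G42740), a gene of the RPL11 family, had the smallest fall of all 49 genes. It went from 77.2 ± 9.04 to 57.3 ± 4.41 scaled TPM (SD, n = 3 each), a change of -0.42 on the log2 scale (SE 0.12, limma adjusted p = 0.0144), which turned to 0.06 on the protein-coding scale. That call was lost without day 0 replicate 3 (-0.37, limma adjusted p = 0.0568) and without day 7 replicate 2 (-0.36, limma adjusted p = 0.0528).

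The stalk of the large subunit, formed by P0 and the acidic P proteins, recruits elongation factors. Its 3 genes fell. The RPP0 copies differed widely in level: AT3G09200 went from 1253 ± 90.1 to 558 ± 29.6 scaled TPM and AT2G40010 from 35.5 ± 3.78 to 13.9 ± 0.595 (SD, n = 3 each). Their falls were 2.25-fold and 2.56-fold, and the share of the minor copy overlapped between the days (2.78% ± 0.468 to 2.43% ± 0.0384, SD, n = 3 each, exact permutation p = 0.3). With a further RPP0 copy outside the 49 genes in the sum, the share of the major copy AT3G09200 went from 89.6% ± 0.113 to 87.9% ± 0.143 (SD, n = 3 each) without overlap. The RPP1 copy AT1G01100 fell by 1.74-fold (log2 difference -0.78, SE 0.17, limma adjusted p = 0.00425).

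**Figure D3:**
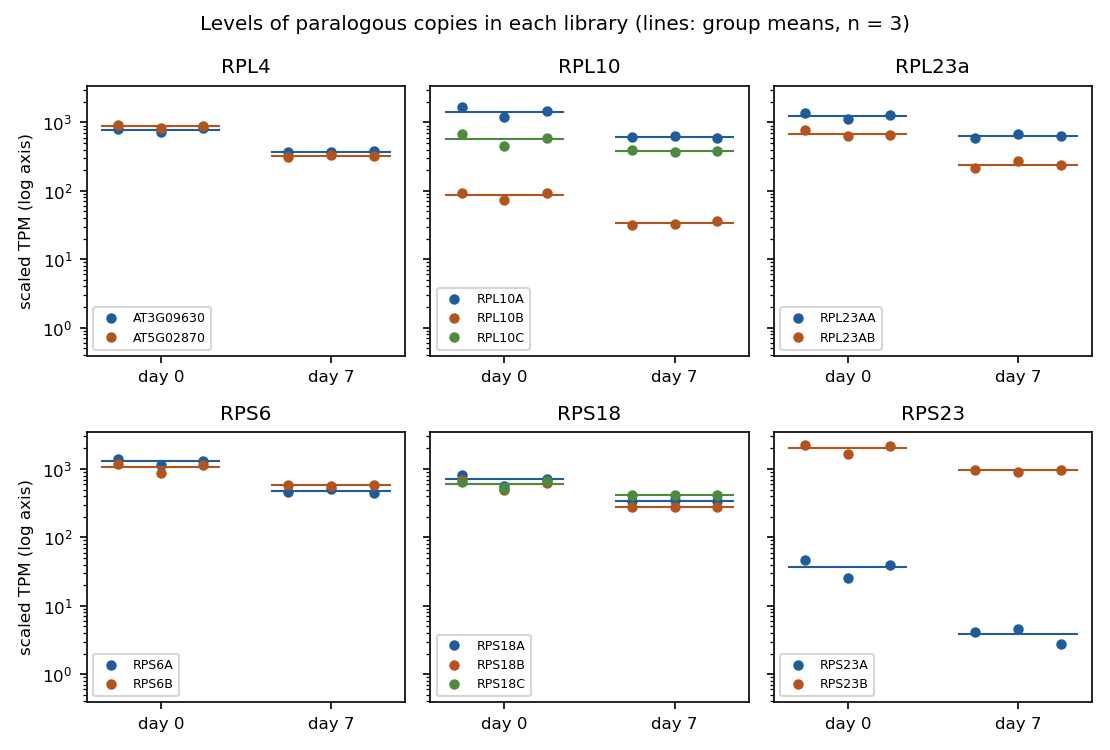
Scaled TPM (y axis, log scale) of the copies of 6 families in each of the 3 day 0 and 3 day 7 libraries, with replicates 1 to 3 from left to right. Lines are group means. RPS23A falls from a mean of 37.3 to 3.84 while RPS23B falls from 2036 to 951, and the copies of RPL4 and RPS6 change places.

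The paralogs whose changes lay furthest apart were those of RPS23, a small subunit protein at the decoding centre. RPS23B read 2255, 1658 and 2194 at day 0 and 977, 908 and 968 at day 7 in scaled TPM. RPS23A read 46.6, 25.4 and 39.8 at day 0 and 4.16, 4.60 and 2.76 at day 7. RPS23A was the minor copy in every library, and its lowest day 0 value was above its highest day 7 value. RPS23A fell by 9.71-fold (log2 difference -2.96, SE 0.24, limma adjusted p = 2.43e-05) and RPS23B by 2.14-fold (log2 difference -1.08, SE 0.17, limma adjusted p = 0.000839). The log2 difference is taken after adding 1 to each value, which shrinks it at levels as low as those of RPS23A. With 0.1 added instead the log2 difference of RPS23A was -3.23. The difference for RPS23A was the largest among the 49 genes on all 3 scales. RPS23A held 2.02%, 1.51% and 1.78% at day 0 and 0.424%, 0.504% and 0.285% at day 7 of the pair, less in every day 7 library than in any day 0 library, while the summed level of the family (2.17-fold lower) followed RPS23B. The level of RPS23A was also the lowest of all 49 genes at day 7.

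RPS6 is the small subunit protein that S6 kinases phosphorylate. RPS6A read 1415, 1138 and 1318 at day 0 and 457, 514 and 448 at day 7 in scaled TPM, and RPS6B read 1172, 868 and 1125 at day 0 and 588, 557 and 584 at day 7. RPS6A was the higher copy in all day 0 libraries and RPS6B in all day 7 libraries. RPS6A fell by 2.73-fold (log2 difference -1.44, SE 0.14, limma adjusted p = 6.48e-05) and RPS6B by 1.83-fold (log2 difference -0.86, SE 0.15, limma adjusted p = 0.00148). The share of RPS6A was 54.7%, 56.7% and 53.9% at day 0 and 43.7%, 48.0% and 43.4% at day 7. Its mean moved by -10.1 points, next in size to the 10.1 points of RPL10C.

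Upstream sequence was compared for these pairs, RPS23 because its copies differed most and RPS6 because its copies changed order. The copies of RPL4 also changed order, but their sequences are not printed. The 300 bases before the annotated start of each gene were read from the TAIR10.1 assembly of RefSeq, in the direction of transcription. In them the telo box was searched as AAACCCTA and the site II motif as TGGGCC or TGGGCT, both on either strand, so that a palindromic TGGGCCCA counts on both strands. Capitals mark the matches, all 4 genes lie on the minus strand, and the windows are chr3:2970372-2970671 (RPS23A), chr5:694516-694815 (RPS23B), chr4:15347805-15348104 (RPS6A) and chr5:3260255-3260554 (RPS6B).
RPS23A: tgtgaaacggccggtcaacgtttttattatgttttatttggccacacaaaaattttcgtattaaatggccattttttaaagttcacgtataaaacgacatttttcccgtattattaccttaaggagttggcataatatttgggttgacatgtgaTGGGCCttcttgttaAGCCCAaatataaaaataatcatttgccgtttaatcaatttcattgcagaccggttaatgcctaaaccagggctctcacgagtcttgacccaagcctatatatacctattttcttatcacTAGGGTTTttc
RPS23B: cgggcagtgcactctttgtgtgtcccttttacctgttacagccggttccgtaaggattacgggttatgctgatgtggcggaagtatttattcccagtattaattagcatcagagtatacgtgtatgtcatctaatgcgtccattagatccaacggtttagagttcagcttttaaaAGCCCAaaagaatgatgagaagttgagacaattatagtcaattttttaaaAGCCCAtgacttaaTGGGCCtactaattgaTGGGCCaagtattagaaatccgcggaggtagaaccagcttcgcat
RPS6A: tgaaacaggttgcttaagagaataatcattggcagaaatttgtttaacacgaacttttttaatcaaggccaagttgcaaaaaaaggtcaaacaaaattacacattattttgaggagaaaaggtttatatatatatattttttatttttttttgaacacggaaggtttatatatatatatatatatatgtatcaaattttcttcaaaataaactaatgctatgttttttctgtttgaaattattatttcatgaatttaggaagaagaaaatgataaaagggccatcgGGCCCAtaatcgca
RPS6B: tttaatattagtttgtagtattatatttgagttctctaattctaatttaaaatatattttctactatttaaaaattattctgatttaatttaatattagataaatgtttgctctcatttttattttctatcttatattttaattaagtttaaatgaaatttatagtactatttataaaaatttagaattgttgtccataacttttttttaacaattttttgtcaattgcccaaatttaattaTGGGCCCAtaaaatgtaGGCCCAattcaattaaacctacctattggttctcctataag
RPS23A had 1 telo box, 11 bases before the start, and 2 site II matches. RPS23B had 0 telo boxes and 4 site II matches. RPS6A had 1 site II match, 14 bases before the start, and RPS6B had 3, of which 2 are the strands of 1 palindrome. In both pairs the copy with more site II matches fell less, but other families went either way. In RPL4 the copy that fell less, AT3G09630, had 4 matches and AT5G02870 had 0. In RPL5 the copy that fell more, RPL5B, had 4 and RPL5A had 2. RPL10B, which fell most in its family, had 2 and RPL10C, which fell least, had 1. A site II motif was found upstream of 32 of the 49 genes (65.3%), compared with 20.8% of the 27443 windows of nuclear protein-coding genes. A telo box was found for 6 of the 49 genes (12.2%), compared with 5.21% of those windows. It was more frequent in further listed copies of the same families (37.1%) and in other cytosolic families (18.0%). In nuclear genes for the plastid ribosome it was found for 13.8%. The site II shares of these lists were 65.7%, 69.9% and 31.0%. These are matches of letters in a window of fixed length and were not related to the differences by a test.

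RPS18 sits at the head of the small subunit, and loss of its copy RPS18A is known to give pointed first leaves. RPS18A read 828, 569 and 724 at day 0 and 340.0, 352 and 340.1 at day 7 in scaled TPM. RPS18B read 699, 490.5 and 630.3 at day 0 and 279, 274 and 278 at day 7, and RPS18C read 652, 502 and 661 at day 0 and 415, 416 and 423 at day 7. At day 0 RPS18A was the highest in each library and the other copies were close to each other, with RPS18B above RPS18C in replicate 1 and below it in replicates 2 and 3. At day 7 the order was RPS18C, RPS18A, RPS18B in every library. The falls were 2.06-fold for RPS18A (log2 difference -1.02, SE 0.15, limma adjusted p = 0.000613) and 2.19-fold for RPS18B (log2 difference -1.11, SE 0.15, limma adjusted p = 0.000313). RPS18C fell by 1.45-fold (log2 difference -0.52, SE 0.14, limma adjusted p = 0.0114). The call for RPS18C was lost without day 0 replicate 3 (-0.46, limma adjusted p = 0.0534) and without day 7 replicate 1 (-0.50, limma adjusted p = 0.0504). RPS18C held 29.9%, 32.2% and 32.8% at day 0 and 40.1%, 40.0% and 40.6% at day 7 of the family, higher in every day 7 library. The share of RPS18A went from 36.8% ± 1.07 to 33.1% ± 0.569 (SD, n = 3 each) and that of RPS18B from 31.6% ± 0.440 to 26.6% ± 0.353 (SD, n = 3 each), both without overlap.

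In the RPSa family, named after a protein on the solvent side of the small subunit, the minor copy RPSAb fell by 3.49-fold (log2 difference -1.72, SE 0.12, limma adjusted p = 1.22e-05), next after RPS23A among the 49 genes. It went from 40.9 ± 4.01 to 11.7 ± 1.22 scaled TPM (SD, n = 3 each) and its share from 3.39% ± 0.115 to 1.91% ± 0.144 (SD, n = 3 each) without overlap, while RPSAA fell by 1.94-fold. The RPS10 copies AT4G25740 and RPS10B fell by 2.02-fold and 1.94-fold, and their shares overlapped. RPS10B had a share of 65.1% ± 0.444 to 66.1% ± 1.68, SD, n = 3 each (exact permutation p = 0.4). With a further RPS10 copy outside the 49 genes in the sum, RPS10B went from 42.2% ± 0.414 to 44.5% ± 1.73 (SD, n = 3 each) without overlap, whereas AT4G25740 still overlapped.

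Among small subunit genes without a paralog among the 49, the RPS21 copy AT3G53890 and RPS28 had the steepest falls. AT3G53890 read 927, 679 and 830.1 at day 0 and 306, 344 and 349 at day 7 in scaled TPM, a 2.44-fold fall and a change of -1.27 on the log2 scale (SE 0.15, limma adjusted p = 0.000155). RPS28 read 426, 276 and 357 at day 0 and 139, 144 and 148 at day 7, a 2.46-fold fall (log2 difference -1.27, SE 0.16, limma adjusted p = 0.000231). In both genes every day 7 library was below every day 0 library. RS27A, a gene for the zinc-binding protein RPS27, and RPS15 differed by -0.999 and -0.96. RPS13A, known from another mutant with pointed first leaves, and the RPS24 copy AT5G28060 differed by -0.82 and -0.65. RPS15A fell least in the small subunit, from 731 ± 103 to 530.1 ± 16.0 scaled TPM (SD, n = 3 each), a change of -0.45 on the log2 scale (SE 0.14, limma adjusted p = 0.0217) that turned to 0.04 on the protein-coding scale. The call for RPS15A was lost on leaving out any library but day 0 replicate 2. Without day 0 replicates 1 and 3 the difference was -0.37 and -0.44 (limma adjusted p = 0.0583 and 0.0762). Without day 7 replicates 1, 2 and 3 it was -0.43, -0.44 and -0.48 (limma adjusted p = 0.083, 0.0636 and 0.0612).

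Whole families differed less among themselves than single copies did. When all listed copies of a protein were summed, the 32 families of the 49 genes had log2 ratios of day 7 to day 0 from -1.28 (RPS28) to -0.71 (RPS24), with an SD of 0.13. Single copies of the 49 genes had an SD of 0.39, and of 0.24 for the 44 genes with a mean of at least 100 scaled TPM. Over all 79 cytosolic families the SD was 0.14 and the range -1.36 (RPL22) to -0.71 (RPS24), compared with an SD of 0.36 for the 208 tested single copies. For the 186 of those copies with a mean of at least 100 scaled TPM the SD was 0.28. A sum averages over copies and is weighted to abundant ones, which by itself narrows the spread, and how much it did so here was not tested. This comparison was made after the values were seen.

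**Figure D4:**
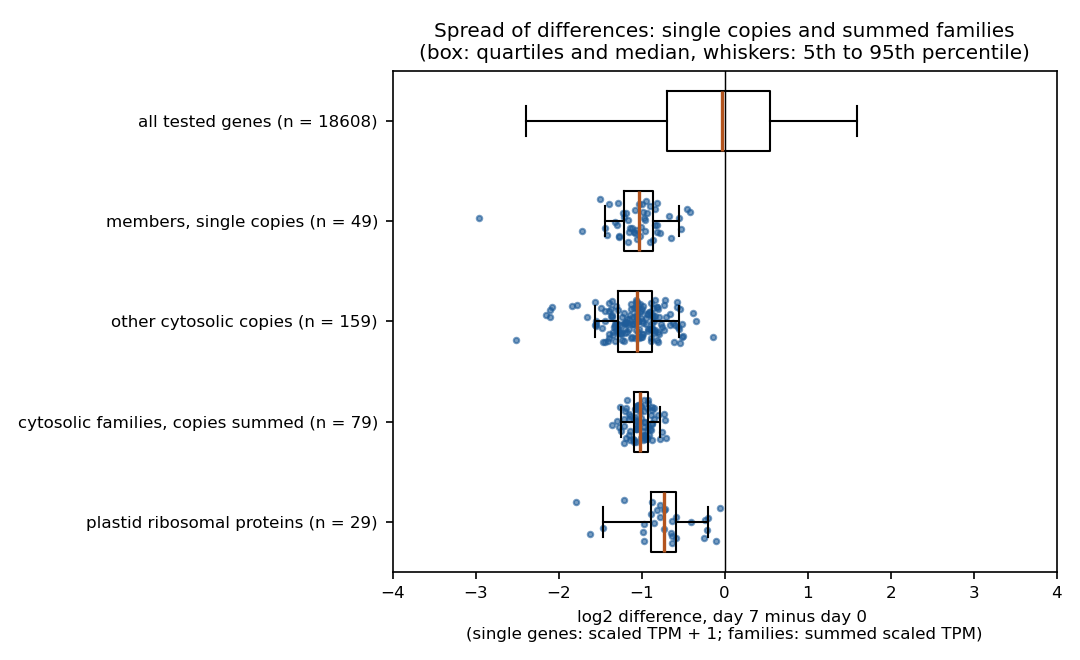
Distribution of log2 differences between day 7 and day 0 (x axis) for all tested genes, the 49 genes (members), other listed cytosolic copies, cytosolic families with their copies summed, and plastid ribosomal protein genes. Points are genes or families, boxes the quartiles with the median, and whiskers the 5th to 95th percentile. The median of the 49 genes is -1.04 and that of all tested genes -0.03.

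Further copies and families of the cytosolic ribosome went the same way. Of 35 listed copies from the families above that are not among the 49 genes, 28 were tested and 28 fell, with log2 differences from -2.51 to -0.56 and a median of -1.07. Of 131 tested genes of other cytosolic families 128 fell, 0 rose and 3 did not pass (median -1.05), although 1 of the 3 rose and 102 fell on the protein-coding scale. In this list the steepest fall was in the RPL27 copy AT2G32220, which went from 123 ± 27.1 to 26.4 ± 0.621 scaled TPM (SD, n = 3 each), a change of -2.15 on the log2 scale (SE 0.16, limma adjusted p = 1.29e-05). On TPM as deposited 12 and 52 genes of these lists passed as lower. All listed cytosolic genes together held 21.8%, 17.0% and 21.0% of nuclear protein-coding TPM at day 0 and 13.9%, 13.7% and 13.9% at day 7. Nuclear genes for the plastid ribosome had a smaller median difference (-0.73). Of 29 tested, 22 fell and 7 did not pass, whereas 4 passed as lower on TPM as deposited and 9 on the protein-coding scale. Of all tested genes 34.5% fell on the scaled values, 16.2% on TPM as deposited and 21.0% on the protein-coding scale. The plastid count on TPM as deposited is thus not above the share of all tested genes. The difference between the lists was not tested.

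Of 11 genes listed as regulators of ribosomal protein synthesis, 6 rose, 4 fell and 1 did not pass, where 30.1% of all tested genes rose and 34.5% fell. The count of falls is near that background. On TPM as deposited only TOR passed, and on the protein-coding scale 7 rose and 1, S6K2, fell, where 49.6% of all tested genes rose and 21.0% fell. TOR (AT1G50030), the kinase that promotes ribosome production, read 4.05, 7.45 and 4.61 at day 0 and 23.0, 19.3 and 20.7 at day 7 in scaled TPM and rose, a change of 1.82 on the log2 scale (SE 0.20, limma adjusted p = 0.000111). The S6 kinases, which act below TOR, were lower on the scaled values. S6K1 (AT3G08730) read 66.4, 69.8 and 62.6 at day 0 and 35.0, 44.0 and 40.7 at day 7 (log2 difference -0.72, SE 0.11, limma adjusted p = 0.000718). S6K2 (AT3G08720) read 14.6, 18.4 and 15.3 at day 0 and 6.46, 8.37 and 8.08 at day 7 (log2 difference -0.99, SE 0.15, limma adjusted p = 0.000539), the largest fall of this list. NIK1 (AT5G16000), the receptor kinase named above with RPL10A, read 16.7, 15.9 and 16.5 at day 0 and 32.1, 29.0 and 29.1 at day 7 and rose, a change of 0.84 on the log2 scale (SE 0.10, limma adjusted p = 0.000162). AT5G05800 read 13.1, 13.2 and 16.2 at day 0 and 21.8, 20.6 and 20.9 at day 7, a change of 0.55 on the log2 scale (SE 0.12, limma adjusted p = 0.00382). In each of these 5 genes the scaled values of the groups did not overlap, a separation seen downward for 37.1% of all tested genes. The share for rises is not given here.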

How the data were processed

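TPM were computed and deposited by the authors, rounded to 2 decimals; the submitters' processing notes list RSEM 1.3.1, STAR 2.7.10a and build TAIR10, with no role for any of them, and the annotation, any filter and strand use are not given in the sources used here. Per the labels' protocols, libraries were made from 1 µg of total RNA with a TruSeq RNA kit. TPM keep no depth, so depth per library is unknown. All 6 library columns were used. A gene entered the test with a TPM of 1 or more in 3 or more libraries, which 18608 did. The test was limma-trend (limma 3.58.1, R 4.3.3) on log2(scaled TPM + 1), where scaled TPM is TPM divided by a median-of-ratios factor over genes with TPM of at least 1 in every library, adjusted by Benjamini-Hochberg across those 18608 genes and called below 0.05. Folds are ratios of mean scaled TPM. All 49 genes passed the filter on low values. Shares were compared by exact permutation (scipy 1.17.1). P-values measure the spread between 3 libraries per group. On TPM as deposited, without replicate number as a block, limma gave a gene's own spread no weight. It used a spread pooled over genes of similar level instead. The 18 genes that passed there had log2 differences from -2.87 to -1.05, and the 31 that did not from -1.02 to -0.33.

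The 49 genes, the gene lists, the tests and the choice of the median-of-ratios scale were made with earlier results of these data known, including that this scale gives more calls than TPM as deposited; counts on the other scales are therefore given beside it. List identifiers were checked against the RefSeq names of TAIR10.1, where 13 products of the cytosolic and plastid lists do not carry the word ribosomal; all were kept. Sequences, positions and coding identity (Biopython 1.88) also come from TAIR10.1. The upstream windows, their motifs, coding identity and the comparison of summed families with single copies were chosen after values were seen.

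Values were given per library for RPL10, RPS18 and RPS23, for the 4 other families with the largest shifts in share, for the 3 steepest rises (there were 0) and falls without a paralog among the 49 genes, and for the most and least abundant gene. From the lists of other cytosolic families, plastid ribosomal proteins and regulators the rule takes the largest rise and fall that passed, with NIK1, AT5G05800, TOR, S6K1 and S6K2 always. Some genes that the rule covers are not reported here, though they stay in the counts.

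The fit was tried on simulated falls. With changed genes drawn from all levels it missed the recovery set as the goal for the largest simulated fold; with changed genes of at least 20 mean scaled TPM it reached that goal. The goal was met by this restriction, not by a change to the test. Simulated falls of 1.25-fold and 1.5-fold were seldom recovered in either run. Falls of 2-fold were recovered for 39.6% of tested genes in the first run and 76% in the second. Each fold was given to 50 genes, all downward, far fewer changes than were called in the data. The recovery therefore does not carry over to the fit of the data.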

Additional observations from a re-analysis of the deposited data

How the results depend on the processing

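The scale between libraries decided how many genes passed. On TPM as deposited 5512 genes changed in place of 12018, and 18 of the 49 ribosomal protein genes fell in place of 49. With protein-coding rescaling 13148 genes changed, 70.2% of them upward against 46.6% on the scaled values, and RPL16A and RPS15A reversed to 0.0646 and 0.038. The scale differences between libraries stay in the error of the deposited values; their part in the lost calls was not tested. A pseudocount of 0.1, no filter and a filter of TPM at least 5 each left 49 falls and 0 rises. Leaving out 1 library gave 45 to 49 falls, 0 rises and 9995 to 11711 changed genes. It also gave 10 to 11 families with a share that did not overlap. Leaving out a library can only keep or raise that count of families, so the count is no check on single libraries. Adding the listed copies outside the 49 genes to the family sums gave 13 such families in place of 10, the added ones being RPL9, RPP0 and RPS10. With replicate number as a block, 49 fell and 11953 genes changed; with the block on TPM as deposited, 35 fell and 10119 changed, and 0 rose in both. Same-numbered libraries deviated together only weakly (correlations across genes of 0.06, 0.16 and 0.03) and not every library correlated best with its own number. Such a correlation removes any shift common to all genes of a library, so it cannot show a shared difference in scale. Nuclear ribosomal RNA genes held 18.0%, 4.19% and 12.1% in day 0 replicates 1, 2 and 3. They held 38.9%, 8.44% and 25.3% in day 7 replicates 1, 2 and 3, the same order. Whether the numbers mark pairs is therefore not settled, and the main fit did not take them as pairs. Depth is unknown and limits most the low copies, RPS23A first.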
